A study of Arabidopsis thaliana with 14 samples.

Results

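Transcript levels in young leaves (YL) of the *hda9* mutant were compared with those in young leaves of wild type *Arabidopsis thaliana* (WT). The comparison used 1 *hda9* library and 2 WT libraries, of 14 samples in the series and 9 libraries of transcripts. Of 33278 genes listed, the 17780 whose FPKM averaged 1 or more over the 3 libraries were tested. FPKM is the number of sequenced fragments of a gene scaled to the length of its transcript and to the number of mapped reads in the library. WT was the Col-0 ecotype, and *hda9* was the T-DNA insertion line SALK_007123 in that background. The plants grew in soil under continuous light, and the labels give the age of these leaves as 2 weeks, while the methods of the study give a somewhat younger age. Apart from that insertion no construct is given for these plants, and no treatment is given. The series also holds early senescent (ES) leaves, with 2 libraries each of WT, *hda9* and *pwr*, a mutant of POWERDRESS, a partner protein of HDA9. They were used only as a second, separate readout of the genes described here.

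HDA9 is a histone deacetylase of the RPD3 class. Such enzymes remove acetyl groups from the tails of histones, and loss of acetylation is generally associated with lower transcription of the gene concerned. HDA9 has no DNA-binding domain of its own and acts in complexes with other proteins, among them POWERDRESS. It is known in *Arabidopsis* for roles in flowering time, seed development and leaf aging. The comparison in young leaves asks which transcripts differ in the mutant before leaves begin to age.

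The values limit what can be said. With 1 *hda9* library against 2 WT libraries, the smallest p that an exact permutation test can give is 0.333, and so no p-value is given for any gene in young leaves. A gene was called higher, or lower, where *hda9* lay at least 2-fold beyond both WT libraries, which is a difference of at least 1 from each on the log2(FPKM + 1) scale after rescaling of the libraries. The labels do not say whether the WT libraries came from separate plants or cultures, and all *hda9* plants carried the same insertion. In whole leaves, fewer cells of a type and less RNA per cell cannot be told apart.

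*HDA9* (AT3G44680, chr3:16226519-16230009 in the RefSeq annotation of TAIR10.1) was itself lower in the mutant. Its FPKM was 3.34 and 4.73 in WT replicates 1 and 2 and 0.918 in *hda9*, with differences of -1.16 and -1.48 on the log2(FPKM + 1) scale. In ES leaves *HDA9* stood at 5.94 and 11.7 FPKM in WT and at 1.12 and 3.21 in *hda9*. The *hda9* libraries were thus below their WT libraries at both ages. The transcript was not absent from the mutant at either age.

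The WT libraries differed from each other about as much as *hda9* differed from WT replicate 1, and less than it differed from WT replicate 2. The median absolute difference over the tested genes was 0.38 between the WT libraries, 0.41 between *hda9* and WT replicate 1 and 0.53 between *hda9* and WT replicate 2. Pearson's r across genes, which are not independent replicates, was 0.920 between the WT libraries, 0.921 for *hda9* with WT replicate 1 and 0.897 for *hda9* with WT replicate 2. At least 2-fold gaps separated the WT libraries at 2026 genes, or 11.4% of those tested. Such gaps separated *hda9* from WT replicate 1 at 2286 genes and from WT replicate 2 at 3849. WT replicate 2 also stood apart in its low values. Among genes with an FPKM under 1, between 14.2% and 15.3% had one common ratio between WT replicate 2 and each of 4 ES libraries, against at most 1.2% in any pair that included WT replicate 1 or *hda9*. *AT2G01021*, a gene in the ribosomal RNA region, was listed at 2104310 FPKM in WT replicate 1, 432947 in WT replicate 2 and 1699660 in *hda9*. The part of these gaps in the results below was not tested, and values against each WT library are given throughout.

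Of the tested genes, 636 were called higher in *hda9*, which is 3.58%, and 592 were called lower, which is 3.33%. By any amount, *hda9* was above both WT libraries at 6879 genes (38.7%), below both at 6350 (35.7%) and between them at 4551 (25.6%). Against WT replicate 1 alone, 1080 genes were at least 2-fold higher and 1206 at least 2-fold lower. Against WT replicate 2 alone the counts were 2213 and 1636. The balance of calls depended on the rescaling: with the 75th percentile of each library as the reference, 480 genes were called higher and 770 lower, and the median over all tested genes moved from 0.02 to -0.14. Under that rescaling the calls of *MT1A*, *GRP7*, *AT4G39200*, *ATG18A*, *CDC20.1*, *NIMIN2* and *LDOX*, which are described below, fell short of the threshold. Many genes stood close to the threshold. Of the called genes, 471 differed from the nearer WT library by less than 1.2 on the log2(FPKM + 1) scale, and 952 uncalled genes differed by more than 0.8. Differences of at least 4-fold from both WT libraries were found at 104 genes in the higher direction and 49 in the lower.

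**Figure D1:**
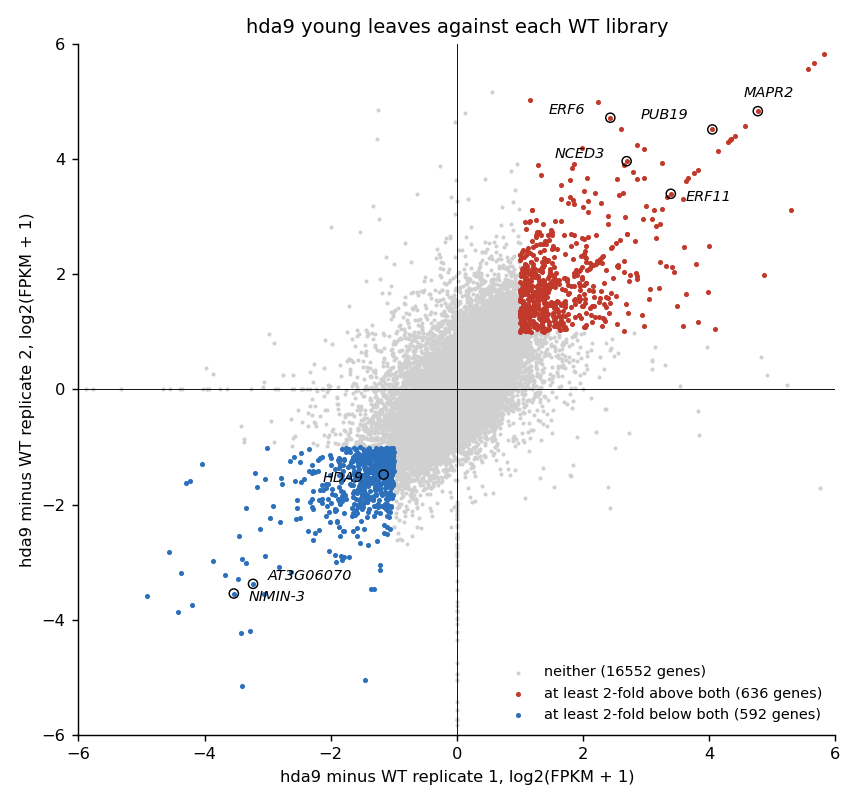
Difference of *hda9* from WT replicate 1 (horizontal axis) and from WT replicate 2 (vertical axis) in young leaves, on the log2(FPKM + 1) scale, with 1 point for each tested gene. Red points are the 636 genes at least 2-fold above both WT libraries and blue points the 592 genes at least 2-fold below both, while 60 genes lie beyond the axis limit of 6. Circled genes are named in the text.

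The coding gene farthest above both WT libraries was *MAPR2* (AT2G24940, chr2:10609417-10609900), which encodes a membrane-associated progesterone-binding protein. It stood at 0.142 and 0.102 FPKM in WT young leaves and at 29.2 in *hda9*, a difference of 4.77 from one WT library and 4.83 from the other. The WT libraries were both near 0 and did not approach the mutant. In ES leaves the same transcript was abundant in every library, at 128 and 97.1 FPKM in WT, 89.3 and 46.6 in *hda9* and 59.7 and 59.8 in *pwr*. The tables of the 2 ages were normalized separately, and levels are not compared between them.

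*PUB19* (AT1G60190), a U-box E3 ubiquitin ligase of drought and abscisic acid responses, followed with 0.907 and 0.413 FPKM in WT and 29.7 in *hda9*. *ERF11* (AT1G28370), a transcription factor of the ethylene response factor family, had 0.264 and 0.278 FPKM in WT against 11.9. Both genes were near 0 in the WT libraries. *THI2.1* (AT1G72260), a thionin induced by jasmonate, had 0.300 and 0.325 FPKM in WT and 8.80 in *hda9*. *ROXY1* (AT3G02000), a glutaredoxin known from petal development, had 4.96 and 1.38 FPKM in WT and 40.8 in *hda9*. *AT5G39670*, which encodes a protein with calcium-binding EF hands, had 3.28 and 1.56 FPKM in WT and 29.2 in *hda9*. Among the better expressed genes of this group were a pair of hydroxyproline-rich glycoprotein genes, a class of proteins of the cell wall. *AT4G38080* had 25.6 and 35.3 FPKM in WT and 239 in *hda9*, and *AT2G22510* had 4.37 and 5.26 in WT and 43.7 in *hda9*. The remaining 4 of the 12 coding genes farthest above WT were *AT5G63130*, *AT5G44550*, *AT1G05575* and *AT4G33467*, with 0.970 to 12.3 FPKM in WT and 30.5 to 103 in *hda9*.

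In the lower direction the coding gene farthest from WT was *NIMIN-3* (AT1G09415, chr1:3037754-3038408), which encodes a protein that binds NPR1, the regulator of salicylic acid responses. Its FPKM was 24.6 and 26.6 in WT and 1.18 in *hda9*, a difference of -3.54 and -3.55. The WT libraries lay close together at this gene. *AT3G06070*, of unknown function, had 39.4 and 46.9 FPKM in WT against 3.22, and *AT4G31030*, a putative membrane lipoprotein, had 318 and 184 against 20.3. *NdhT* (AT4G09350), a subunit of the chloroplast NDH complex of cyclic electron flow, had 30.3 and 39.0 FPKM in WT and 5.73 in *hda9*. *ATSPS4F* (AT4G10120), a sucrose-phosphate synthase, had 9.02 and 6.74 in WT and 0.721 in *hda9*. *ABCF5* (AT5G64840), of the ABC transporter F family, had 30.1 and 35.4 in WT and 6.24 in *hda9*. A gibberellin-regulated family gene, *AT1G22690*, was at 144 and 126 FPKM in WT and 23.2 in *hda9*. The neighbouring genes *AT3G05727* and *AT3G05730*, the second of which encodes a defensin-like protein, were both lower. *AT3G05730* had 327 and 376 FPKM in WT and 77.0 in *hda9*, and *AT3G05727* had 248 and 327 against 59.3.

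**Figure D2:**
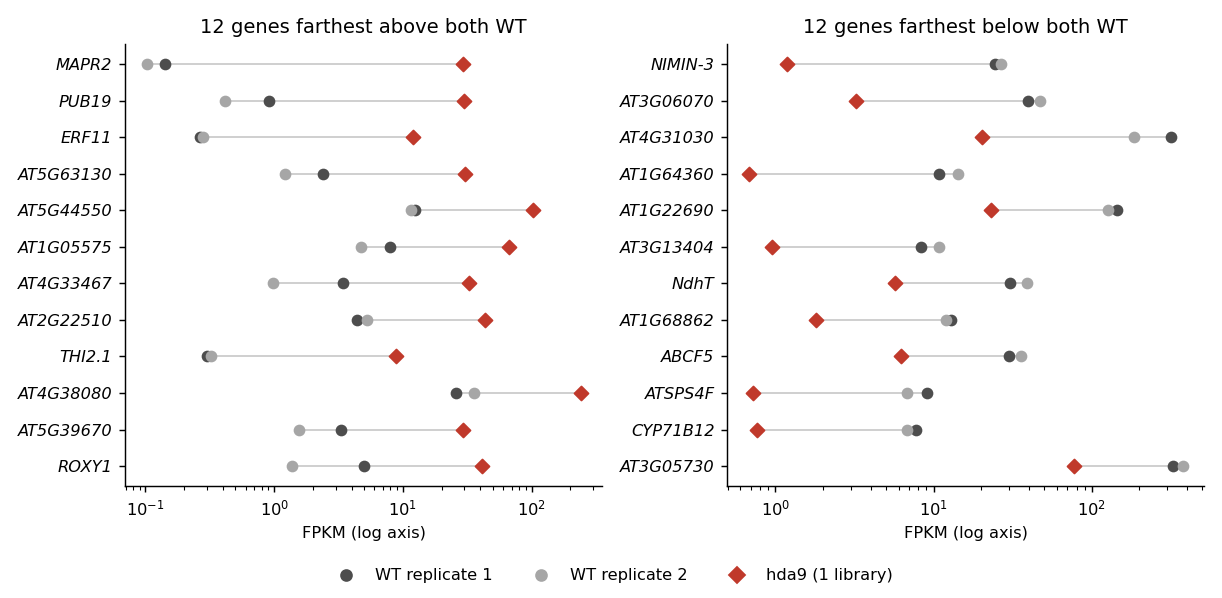
FPKM as deposited, on a log axis, in each of the 3 young leaf libraries for the 12 coding genes farthest above both WT libraries (left) and the 12 farthest below both (right), ranked by the distance from the nearer WT library. Circles are WT replicates 1 and 2 and diamonds are *hda9*, and at *MAPR2* the WT libraries stand at 0.142 and 0.102 against 29.2.

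The calls also held genes that were listed at 0 on one side, for which no fold is given. Listed at 0 in both WT libraries were 37 genes called higher, 24 of them coding, and 98 genes called lower were listed at 0 in *hda9*, 81 of them coding. The highest values belonged to short RNA loci. The tRNA locus *AT1G60840* had 906 FPKM in *hda9* and was listed at 0 in both WT libraries, and *AT3G62245*, *AT1G19373*, *AT2G07758* and *AT1G12015* were listed at 0 in WT with 316 to 736 FPKM in *hda9*. In the other direction *AT2G07764*, *AT4G08345*, *MIR167b*, *AT1G14642* and *MIR825* were listed at 0 in *hda9*, with 56.2 to 1001 FPKM in the WT libraries. FPKM is divided by transcript length, and a few fragments give a large value at such short loci.

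At the upper end of expression, *MT1A*, a metallothionein that binds metal ions, had 9091 and 10427 FPKM in WT and 22689 in *hda9*. *LHCB1.4*, a chlorophyll-binding protein of the photosystem II antenna, had 5035 and 1665 in WT and 11663 in *hda9*. *GRP7*, a glycine-rich RNA-binding protein under circadian control, had 1283 and 1219 in WT and 2519 in *hda9*. The WT libraries were close to each other at *MT1A* and *GRP7* and far apart at *LHCB1.4*. Among abundant genes called lower, *GRP-3*, a glycine-rich protein, had 1705 and 1471 FPKM in WT and 578 in *hda9*. *BT2*, a BTB and TAZ domain protein, had 244 and 203 in WT and 85.5 in *hda9*, and *CYSC1*, a cysteine synthase family enzyme of mitochondria that detoxifies cyanide, had 201 and 214 against 83.6. Abundant genes as a class stood higher in *hda9*. Among the 1400 genes with a mean of at least 100 FPKM, 72 were called higher and 16 lower, with a median difference of 0.29 from WT replicate 1 and 0.86 from WT replicate 2, and the median gap of WT replicate 2 from WT replicate 1 was -0.57. Among the 6056 genes between 1 and 5 FPKM, 181 were called higher and 256 lower.

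Lists of genes with known roles were described by their calls and medians. Over all tested genes 3.58% were called higher and 3.33% lower, and the median difference was 0.02. The list with the largest median held regulators that respond within minutes to touch, cold or other stress. Of its 19 tested members, 8 were called higher and 0 lower, 17 were above both WT libraries and 0 below both, and the median difference was 1.48. Against WT replicate 1 the median was 0.96 and against WT replicate 2 it was 1.98. The WT libraries differed at these genes too, with a median of -1.11 for WT replicate 2 against WT replicate 1. In the medians the order was therefore WT replicate 2, WT replicate 1 and then *hda9*.

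The CBF transcription factors, which activate cold-responsive genes, were all called higher. *CBF1* had 0.774 and 1.3 FPKM in WT and 14.4 in *hda9*. *CBF2* had 9.15 and 1.3 against 38.2, and *CBF3* had 0.418 and 0.456 against 3.84. They are tandem genes of similar sequence on chromosome 4, and reads shared among them could have been split. *ERF6* had 42.6 and 8.53 FPKM in WT and 228 in *hda9*, and *ERF5* had 26.7 and 6.07 against 96.4. Both encode ethylene response factors, and at both the WT libraries were more than 4-fold apart. *TCH3*, a calmodulin-like protein induced by touch, had 24.5 and 43.2 in WT and 87.1 in *hda9*. *CML37*, a related calcium sensor, had 1.29 FPKM in WT replicate 1, was listed at 0 in WT replicate 2 and had 8.37 in *hda9*. In ES leaves 0 of the 20 members tested there were higher in *hda9* and 4 were lower at an unadjusted p under 0.05 by limma, against 2.76% and 2.75% of all genes tested in ES leaves.

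The bases before the annotated starts of the leading coding gene, of *ERF11* and of the tandem CBF genes are shown because these genes were low in one or both WT libraries and called higher in *hda9*. Each window holds the 250 bases upstream of the gene's start in the RefSeq annotation of TAIR10.1, read 5' to 3' on the gene's strand. The positions are chr2:10609167-10609416, plus strand for *MAPR2*, chr1:9956981-9957230, minus strand for *ERF11*, chr4:13016236-13016485, minus strand for *CBF2*, chr4:13019401-13019650, minus strand for *CBF3* and chr4:13022997-13023246, minus strand for *CBF1*. Capitals mark TTGAC, the core of the W-box bound by WRKY factors, CACGTG, the G-box, and CGCGTT, an element of rapid stress genes, each searched on both strands.
MAPR2: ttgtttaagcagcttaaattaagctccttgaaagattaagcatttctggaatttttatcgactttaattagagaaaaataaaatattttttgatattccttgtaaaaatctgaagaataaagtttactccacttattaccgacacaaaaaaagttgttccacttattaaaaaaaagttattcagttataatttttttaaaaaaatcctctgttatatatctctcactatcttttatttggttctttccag
ERF11: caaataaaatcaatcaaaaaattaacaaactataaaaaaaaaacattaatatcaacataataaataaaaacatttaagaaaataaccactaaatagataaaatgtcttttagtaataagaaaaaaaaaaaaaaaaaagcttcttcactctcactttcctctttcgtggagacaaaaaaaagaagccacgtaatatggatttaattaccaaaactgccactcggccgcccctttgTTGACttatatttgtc
CBF2: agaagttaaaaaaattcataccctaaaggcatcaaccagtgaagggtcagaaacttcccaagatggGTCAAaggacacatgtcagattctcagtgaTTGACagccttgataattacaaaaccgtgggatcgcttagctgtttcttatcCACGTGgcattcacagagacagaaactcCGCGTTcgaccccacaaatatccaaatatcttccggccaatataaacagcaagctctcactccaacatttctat
CBF3: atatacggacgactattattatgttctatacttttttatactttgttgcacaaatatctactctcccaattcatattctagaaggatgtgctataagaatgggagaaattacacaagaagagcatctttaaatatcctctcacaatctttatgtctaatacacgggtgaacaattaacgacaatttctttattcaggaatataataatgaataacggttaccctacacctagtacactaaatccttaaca
CBF1: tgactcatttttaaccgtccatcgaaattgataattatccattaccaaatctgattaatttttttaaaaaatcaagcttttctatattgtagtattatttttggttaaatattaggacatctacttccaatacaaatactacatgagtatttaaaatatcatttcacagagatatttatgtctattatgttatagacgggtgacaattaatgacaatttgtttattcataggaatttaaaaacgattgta

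*ERF11* held 1 W-box core, which began 16 bases before the start. *CBF2* held 2 W-box cores, 1 G-box and 1 CGCGTT element. No match lay in the windows of *MAPR2*, *CBF3* and *CBF1*. Over all coding genes, 44.9% of 27443 windows of this length held TTGAC, 6.49% held CACGTG and 2.59% held CGCGTT. Over the 17216 coding genes tested with a window the shares were 44.4%, 7.34% and 2.68%. Among the 599 coding genes called higher the shares were 49.7%, 9.68% and 3.51%, and among the 563 called lower they were 41.6%, 6.04% and 1.78%. A match describes the letters in the window and is not evidence of binding.

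**Figure D3:**
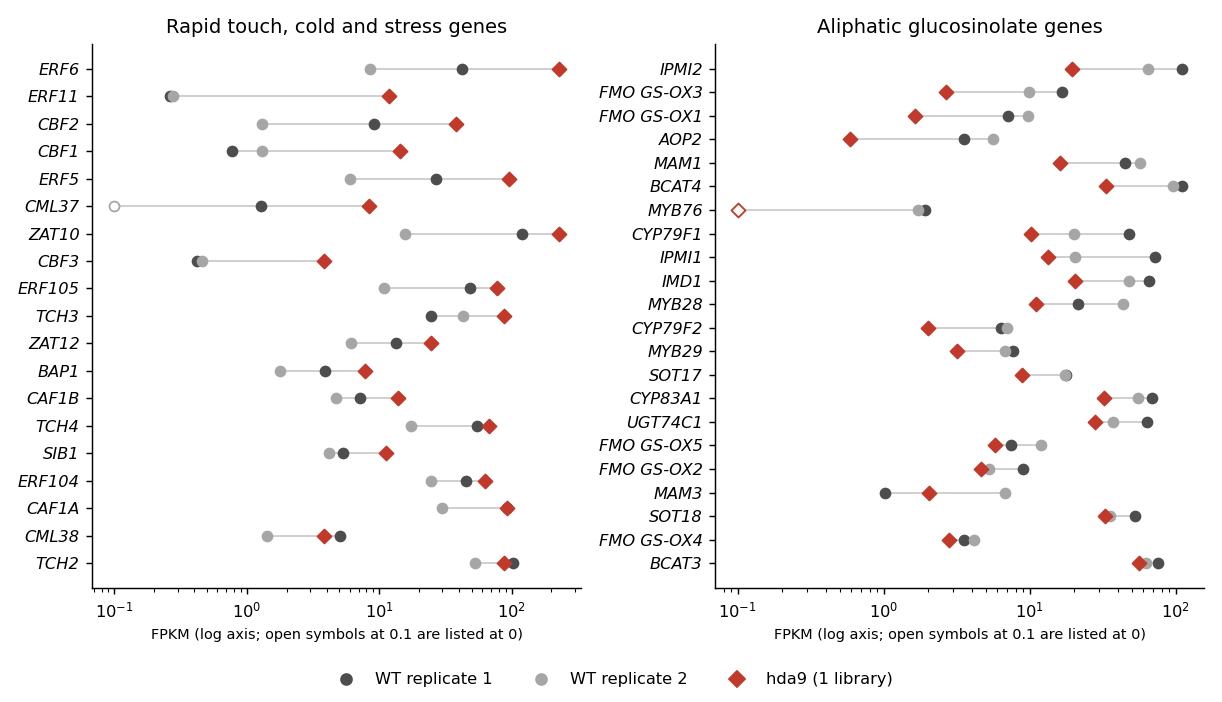
FPKM as deposited, on a log axis, in each young leaf library for the 19 tested genes of the rapid stress list (left) and the 22 tested genes of aliphatic glucosinolate synthesis (right). Circles are WT and diamonds *hda9*, and open symbols at 0.1 are listed at 0. The diamonds stand to the right of both circles at 17 genes on the left and to the left of both at 20 genes on the right after rescaling.

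Glucosinolates are sulfur-rich defense compounds of the cabbage family, made from methionine in the aliphatic branch and from tryptophan in the indolic branch. Of 32 tested genes of their synthesis, 0 were called higher and 9 lower. Below both WT libraries stood 23 of them, and the median difference was -0.97 from WT replicate 1 and -0.78 from WT replicate 2. The genes called lower belonged to the aliphatic branch. Some tested genes were assigned to neither branch, and most of these were also below both WT libraries, without a call. Its 22 tested genes held all 9 calls, 20 were below both WT libraries, and their median difference was -1.29. The 6 tested genes of the indolic branch held no call, 3 were above both WT libraries and their median difference was 0.40. The split by branch was made after the values were seen, and the difference between the branches was not tested.

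Enzymes that lengthen the methionine side chain gave the most abundant of the lower transcripts. *BCAT4*, the aminotransferase of the first step, had 110 and 95.4 FPKM in WT and 33.4 in *hda9*. *IPMI2*, a subunit of isopropylmalate isomerase, had 111 and 64.5 against 19.3, and *MAM1*, a methylthioalkylmalate synthase, had 45.1 and 56.6 against 16.1. For side-chain modification, the S-oxygenases *FMO GS-OX1* (7.10 and 9.71 against 1.63 FPKM) and *FMO GS-OX3* (16.7 and 9.82 against 2.68) were called lower, as was *AOP2* (3.56 and 5.63 against 0.590). *MYB76*, a transcription factor of this branch, had 1.92 and 1.71 FPKM in WT and was listed at 0 in *hda9*. *MYB28* and *MYB29*, its main regulators, were below both WT libraries but missed the threshold, with 21.6 and 43.4 against 11.1 FPKM for *MYB28* and 7.67 and 6.76 against 3.16 for *MYB29*. In ES leaves 0 of the 32 genes were higher and 5 were lower in *hda9* at an unadjusted p under 0.05 by limma. Over all genes tested in ES leaves the shares were 2.76% and 2.75%. The median log2 difference of the 32 genes there was -0.85, with -0.26 in replicate 1 and -1.37 in replicate 2.

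Abscisic acid (ABA) is the hormone of drought responses. Of 25 tested genes of its synthesis and response, 6 were called higher and 0 lower, and the median difference was 0.43. *NCED3*, the limiting enzyme of ABA synthesis under drought, had 4.14 and 1.22 FPKM in WT and 31.3 in *hda9*. A group of protein phosphatases 2C that restrain ABA signaling was higher. *AHG3* had 16.1 and 17.1 FPKM in WT against 95.0, *HAI2* had 0.562 and 0.265 against 8.61, and *ABI1* had 22.6 and 17.7 against 56.1. *HAI1*, also known as *SAG113*, had 8.34 and 1.72 against 30.5. Other phosphatases of this family did not share the direction: *HAB1* had 9.63 and 10.7 FPKM in WT and 4.67 in *hda9*, and *HAB2* had 8.71 and 8.79 against 4.05, both short of the threshold. Of the late response genes, *RAB18* had 28.7 and 4.05 in WT and 4.78 in *hda9*, and *RD29A* had 14.5 and 4.47 against 4.91, so that *hda9* lay between the WT libraries or near the lower one. *KIN1*, a cold and ABA response gene, was called higher with 2.85 and 4.96 against 11.7.

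Jasmonate and salicylic acid genes gave calls in the higher direction as well. Of 27 tested genes of jasmonate synthesis, signaling and wounding, 5 were called higher and 0 lower. The median difference was 0.16 from WT replicate 1 and 0.94 from WT replicate 2. Besides *THI2.1* these were *VSP1* (15.7 and 12.9 FPKM in WT, 44.4 in *hda9*) and *VSP2* (76.7 and 64.9 against 159), which encode vegetative storage proteins, and the synthesis genes *LOX4* (1.37 and 0.490 against 4.90) and *AOC3* (6.31 and 3.59 against 14.0). Of 21 tested salicylic acid and defense genes, 4 were called higher and 0 lower, with a median of 0.02 from WT replicate 1 and 0.49 from WT replicate 2. They were *CBP60G*, an activator of salicylic acid synthesis, with 0.629 and 0.934 FPKM in WT and 5.56 in *hda9*, *WRKY46*, *WRKY33* and *NIMIN2*. *PR1*, the standard marker of salicylic acid responses, was listed at 0 in all 3 libraries.

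**Figure D4:**
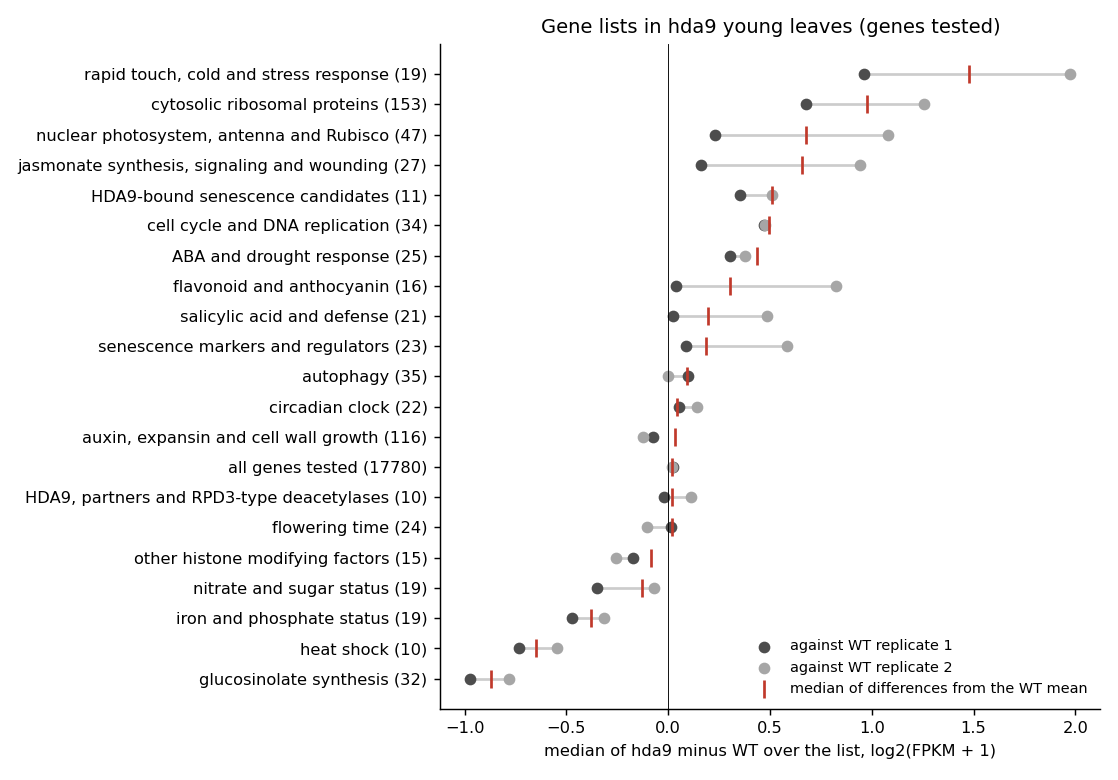
Median difference of *hda9* from WT replicate 1 (dark circles) and from WT replicate 2 (light circles) over each list of genes, on the log2(FPKM + 1) scale, with the median of the differences from the WT mean as a red bar and the number of tested genes in parentheses. The rapid stress list stands highest, at 0.96 and 1.98, and glucosinolate synthesis lowest, at -0.97 and -0.78.

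Genes of leaf senescence, the process for which HDA9 was studied here, were compared before the leaves had aged. Of 23 tested markers and regulators, 7 were called higher and 0 lower, 13 were above both WT libraries and 6 below both, and the median difference was 0.09 from WT replicate 1 and 0.58 from WT replicate 2. *NAC019* and *NAC055* encode related NAC transcription factors. *NAC019* had 0.267 and 0.199 FPKM in WT and 4.31 in *hda9*, and *NAC055* had 3.01 and 2.5 against 11. *WRKY53*, an early regulator of senescence, had 7.26 and 8.98 FPKM in WT and 25.3 in *hda9*, and *SAG21* had 230 and 305 against 824. *SAG20*, *WRKY22* and *SAG113* were called as well. These genes also respond to stress. The classic late marker *SAG12* was listed at 0 in all 3 libraries, *ORE1*, a NAC regulator of aging, had 4.56 and 2.83 against 2.22, and the chlorophyll breakdown gene *NYC1* had 33.8 and 27 against 12.

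The 11 genes that the study names as bound by HDA9 and of interest in senescence, which were chosen on these same genotypes in ES leaves, gave 0 calls in young leaves. By any amount 8 were above both WT libraries and 2 below both, with a median difference of 0.51. *AFP4*, a repressor of ABA signaling, had 7.60 and 5.46 FPKM in WT and 12.3 in *hda9*, and *CAT1*, a catalase, had 6.67 and 7.46 against 10.8. *WRKY57* had 2.05 and 1.72 against 2.93, and *ATG9*, an autophagy gene also called *APG9*, had 3.52 and 2.61 against 1.36. In ES leaves 8 of these 11 were higher in *hda9* at an unadjusted p under 0.05 by limma, against 2.76% of all genes tested there. The study chose the 11 in part for higher values in these same ES libraries, so this count is not separate evidence. Of the 192 tested genes that the study lists as bound by HDA9 and higher in *hda9* ES leaves, 7 were called higher in young leaves, or 3.65%, and 4 lower, or 2.08%, with a median of 0.04. Of the study's list of genes higher in *hda9* ES leaves, 581 were tested, 29 were called higher (4.99%) and 14 lower (2.41%), and the median was -0.03. Of its list of genes lower in ES leaves, 581 were tested, 31 were called higher (5.34%) and 38 lower (6.54%), and the median was 0.11. The background was 3.58% called higher and 3.33% called lower, with a median of 0.02 over all genes tested.

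Genes of the translation machinery were above WT as a group by a modest amount. Of 153 tested genes of cytosolic ribosomal proteins, 17 were called higher and 1 lower, 142 were above both WT libraries and 6 below both, and the median difference was 0.68 from WT replicate 1 and 1.26 from WT replicate 2. *RPS13A* had 886 and 508 FPKM in WT and 1962 in *hda9*, and *RPS28* had 787 and 430 against 1664. The abundance class of these genes stood higher in *hda9* too, as given above, and WT replicate 2 was below WT replicate 1 by a median of 0.56, so that the part of expression level in this difference was not tested. Nuclear genes of the photosystems, antenna and Rubisco had a median of 0.23 from WT replicate 1 and 1.08 from WT replicate 2 over 47 genes, with 1 called higher and 1 lower. In ES leaves 0 of these 47 were higher in *hda9* and 7 lower at an unadjusted p under 0.05 by limma. Their median there was -1.20, and the shares over all genes tested were 2.76% and 2.75%. Genes of the cell cycle and DNA replication had a median of 0.47 from each WT library over 34 genes, with *CDC20.1* called higher at 11.9 and 11.1 FPKM in WT and 25.8 in *hda9*.

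Growth-related families gave calls in both directions. The SAUR, XTH, expansin and Aux/IAA families act in auxin response and cell wall loosening. Genes were taken by a symbol or synonym of these families. The set thus also held genes such as *MP* and *NPH4*, whose main symbols are of none of them, and membership was not checked further. Over 116 tested genes, 7 were called higher and 11 lower, with a median difference of 0.03. Of 54 tested genes with a SAUR name, 5 were called higher and 8 lower. A run of similar SAUR genes on chromosome 1, picked after its values were seen, held 4 of the lower calls among its 7 tested members, while *AT1G29430* and *AT1G29450* were below both WT libraries without a call and *AT1G29420* was above both without a call. *SAUR63* had 14.1 and 17.5 FPKM in WT and 2.90 in *hda9*, *SAUR68* had 25.6 and 11.2 against 3.66, and *AT1G29500* had 12.7 and 14.9 against 2.69. Reads of these similar genes could have been split among them. Among the 5 genes with a SAUR name called higher, *AT1G56150* was the most abundant, with 14.6 and 9.75 FPKM in WT and 59.6 in *hda9*. The Aux/IAA repressor *IAA7* was lower at 52.1 and 130 against 22.3, and *ATAUX2-11* at 50.4 and 61.9 against 16.5. Of the cell wall enzymes, *XTH15* was higher (6.88 and 7.82 against 21.3) and *XTH14* lower (4.78 and 4.11 against 0.602).

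Few calls fell in the remaining lists. Of 24 tested flowering time genes, *FKF1*, a blue light receptor of the photoperiod pathway, was called higher with 3.97 and 3.3 FPKM in WT and 9.74 in *hda9*. *AGL19*, a MADS-box activator of flowering, was below the filter at 0 and 0.878 FPKM in WT and 1.22 in *hda9*, and *FLC*, the main repressor, had 14.0 and 15.2 against 7.95 without a call. Of 35 autophagy genes, *ATG18A* was called higher (8.49 and 9.82 against 20.6) and *ATG12A* lower (10.9 and 16.0 against 4.78). Of 10 tested HDA9 partners and related deacetylases, *HDA9* alone was called. *PWR* had 1.71 and 2.09 FPKM in WT and 2.61 in *hda9*, and *HDA6* had 11.8 and 11 against 10.9. *CPC* and *LDOX* were called higher among 16 flavonoid and anthocyanin genes, *ASN1* among 19 genes of nitrate and sugar status and *FKF1* among 22 clock genes. No call was made among 10 heat shock genes, whose median difference was -0.65, 19 iron and phosphate genes at -0.38, or 15 other histone factors at -0.08.

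Markers of cell types were examined beside these counts. Leaf genes were abundant in all libraries, with *RBCS1A*, a small subunit of Rubisco, at 25731 and 18769 FPKM in WT and 19104 in *hda9*. All 4 guard cell markers were below both WT libraries. *FAMA*, which fixes guard cell identity, was called lower with 2.67 and 7.15 FPKM in WT and 0.739 in *hda9*, and *MYB60* had 1.99 and 8.17 against 1.51. WT replicate 2 was the highest library at each of these 4 genes and at the 3 xylem markers, where *XCP2* had 10.2 and 42.1 FPKM in WT and 6.41 in *hda9*. Of 6 shoot apex markers, *STM* had 4.90 and 3.23 against 6.78, *KNAT1* had 5.50 and 7.99 against 3.78, and *WUS* was listed at 0. Root markers ranged from 0 to 30.01 FPKM, the highest being *CASP1* at 24.1 and 15.9 in WT and 30.01 in *hda9*. *AP1*, *AG* and *SEP2*, which define floral organs, were listed at 0 throughout, and *PI* had 5.34 and 3.48 against 2.66. Of 12 seed and embryo markers, traces up to 7.91 FPKM stood in WT replicate 1, and the *hda9* library had at most 0.463. The part of cell composition in the calls was not tested.

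The ES libraries took no part in choosing the young leaf genes and gave a separate readout of them. Of 18140 genes tested there, 501 were higher in *hda9* (2.76%) and 498 lower (2.75%) at an unadjusted p under 0.05 by limma, and 1 and 4 genes passed after Benjamini-Hochberg adjustment by limma. Of the 636 genes called higher in young leaves, 490 were tested in ES leaves, 17 were called higher (3.47%) and 20 lower (4.08%), and their median log2 difference was -0.07. Of the 592 called lower, 514 were tested, 5 were called higher (0.973%) and 32 lower (6.23%), and their median was -0.12. After adjustment by limma 0 genes of either set passed. For the genes called lower in young leaves, the share lower in ES leaves was above the background of 2.75% and the share higher was below that of 2.76%, and this difference was not tested. The lower set's count ranged from 18 without *hda9* ES replicate 2 to 79 without *hda9* ES replicate 1, where all genes gave 226 and 1082 lower calls.

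Genes with the same call at both ages included *AT5G11330*, an oxidoreductase family gene, with 35.4 and 35.9 FPKM in WT young leaves and 10.8 in *hda9*. In ES leaves it had 66.0 and 75.3 in WT and 24.9 and 28.6 in *hda9*. The groups did not overlap at either age. *ZFHD1*, a zinc finger homeodomain factor induced by drought, had 4.3 and 3.46 FPKM in WT young leaves and 19.9 in *hda9*, and 0.262 and 0.634 against 2.70 and 3.95 in ES leaves. *AT4G23670*, of the polyketide cyclase family, had 1035 and 1094 against 442 in young leaves and 461 and 801 against 169 and 212 in ES leaves. *CYP71A25*, a cytochrome P450, had 6.75 and 6.36 FPKM against 0.950 in young leaves and 16.2 and 16.4 against 6.21 and 2.98 in ES leaves. These were among the 8 genes of smallest p that shared a direction, and their adjusted p by limma was 0.806 or higher.

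*WES1* belonged to the same 8 genes. It encodes GH3.5, an enzyme of the GH3 family that joins amino acids to auxin and other hormones. Its FPKM was 13.7 and 8.64 in WT young leaves and 39.5 in *hda9*, and 1.89 and 9.34 against 38.4 and 87.1 in ES leaves. *BRU6*, which encodes GH3.2, had 1.77 and 1.28 against 6.99 in young leaves and 0.432 and 4.49 against 5.38 and 18.5 in ES leaves. *GH3.3* had 2.15 and 1.68 against 7.92 in young leaves and 0.806 and 13.7 against 19.2 and 39.1 in ES leaves. *GH3.17* had 7.34 and 7.59 FPKM against 7.25 in young leaves, and 0.0637 and 0.399 against 4.56 and 4.55 in ES leaves, and at the younger age *hda9* was within 0.07 of each WT library on the log2(FPKM + 1) scale. Over the 6 tested genes of this family, 3 were called higher in young leaves and 4 in ES leaves at an unadjusted p under 0.05 by limma. The shares called higher over all genes tested were 3.58% in young leaves and 2.76% in ES leaves. The family was singled out after its values were seen, and the lowest adjusted p by limma in ES leaves was 0.691.

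**Figure D5:**
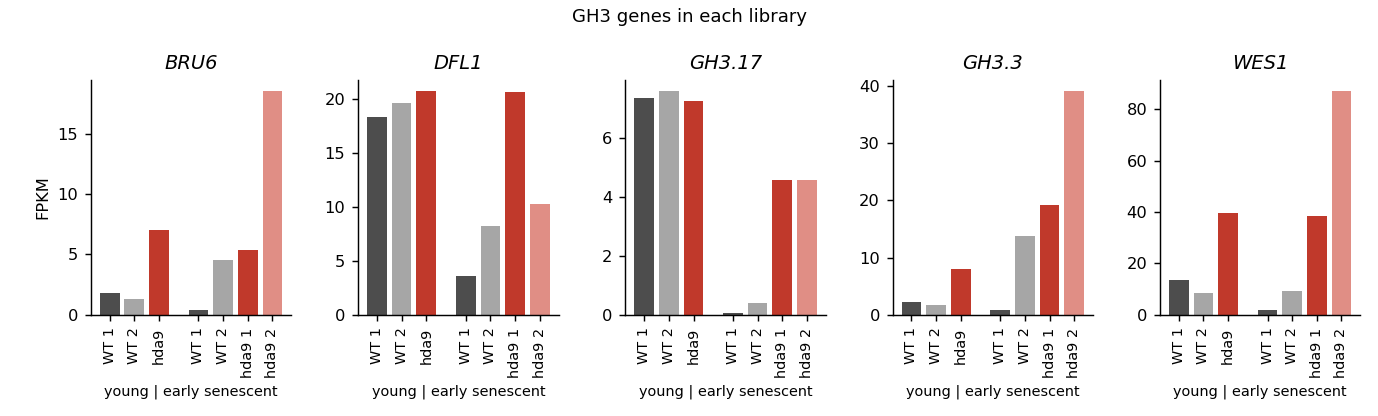
FPKM as deposited of 5 GH3 genes in each library, with 2 WT and 1 *hda9* library of young leaves on the left of each panel and 2 WT and 2 *hda9* libraries of early senescent leaves on the right. Each panel has its own vertical axis from 0. For *WES1* the young leaf bars stand at 13.7, 8.64 and 39.5.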

How the data were processed

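Libraries were made from total RNA with an mRNA kit. The authors aligned reads to TAIR10 with Bowtie2 and TopHat, collapsed reads at identical positions and deposited 1 FPKM value for each gene and library. Cufflinks is named with TopHat for the analysis of differential expression, but the sources used here do not say outright which program wrote the FPKM tables, nor do they name a further scaling between libraries. The tables hold no read counts. The study lists mapped reads for *hda9* and for a single entry of WT young leaves that is not tied to a replicate, and these totals were not used here. Young and early senescent leaves are in separate tables and were compared only within a table. Genes of the organelle genomes were not analysed here.

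Of 33278 identifiers 32820 matched RefSeq (TAIR10.1), which gave symbols, coordinates and sequences. Libraries were divided by median ratios over the 19314 genes above 0 in all 3 (0.992 for WT replicate 1, 1.06 for WT replicate 2 and 0.965 for *hda9*), and a pseudocount of 1 was added before the log2. Fold changes on this scale understate those of low genes. Calls needed 2-fold beyond both WT libraries at a mean of at least 1 FPKM. No test was made in young leaves apart from an alternative with limma on 1 residual degree of freedom. ES libraries were fitted with limma 3.58.1 in R 4.3.3 (trend, 3 genotypes in 1 fit), tested on simulated data, and every adjusted p is from limma. Python 3.11.15, pandas 2.3.3, numpy 2.4.6 and matplotlib 3.10.9 were used.

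The members and lists were chosen with earlier results of these data known. Named genes are *HDA9*, the 12 coding genes above 0 in all 3 libraries with the largest distance from the nearer WT library in each direction, up to 5 genes listed at 0 on one side, up to 4 members of each list (called ones first), the 11 bound genes, the 10 most abundant called genes each way and 8 genes called at both ages, as examples. Further genes were named after their values were seen. Alternatives changed the pseudocount, rescaling, filter, fold, test and libraries.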

Additional observations from a re-analysis of the deposited data

Results flagged for a closer look

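At 13 of the named genes every *hda9* library differed from every WT library in one direction in young leaves and in the opposite direction in ES leaves. Over all genes tested in young leaves, *hda9* was above both WT libraries at 38.7% and below both at 35.7%. In ES leaves both *hda9* libraries were above both WT libraries at 16.2% of all genes tested and below both at 15.9%. Many named genes were picked for their young leaf values, so the young leaf shares are not a background for them. Of the 490 genes called higher in young leaves and tested in ES leaves, 16.9% were below both WT libraries there. Of the 514 called lower, 12.8% were above both. These shares were near or below those of all genes, so the 13 genes do not show a reversal between the ages. Whether 13 exceeds what such shares would give among the named genes was not tested. The difference between the ages was not tested, and the ages came from tables normalized separately. Values are the mean differences from WT on the log2(FPKM + 1) scale, first in young and then in ES leaves. Higher in young and lower in ES leaves were *ERF6* (3.58 and -1.39), *THI2.1* (2.96 and -1.68), *LHCB1.4* (2.1 and -3.65) and *ASN1*, an asparagine synthetase (2.00 and -1.52). The ribosomal protein genes *AT2G36160* (1.5 and -0.44), *AT2G41840* (1.48 and -0.36) and *AT4G39200* (1.5 and -0.23) had the same pattern, as had the short RNA locus *AT2G20723* (7.22 and -4.61), which was listed at 0 in WT replicate 1 of young leaves and in *hda9* replicate 2 of ES leaves. Lower in young and higher in ES leaves were *ABCF5* (-2.14 and 0.47), *ATSPS4F* (-2.30 and 0.68), *CYP71B12* (-2.17 and 0.75), *AT3G13404* (-2.37 and 1.54) and *FAMA* (-1.60 and 0.51).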

How the results depend on the processing

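*HDA9* stayed at least 2-fold below the mean of the WT libraries that were kept under every alternative run for it. The difference ranged from -1.16 without WT replicate 2 to -1.91 with a pseudocount of 0.1. The counts of 636 genes called higher and 592 called lower moved to 2018 and 1887 at 1.5-fold, to 1397 and 1206 at 2-fold from the mean of the WT libraries, and to 11 and 3 by limma on the 3 libraries at an adjusted p under 0.05. With a single WT library the higher count ranged from 1080 (without replicate 2) to 2213 (without replicate 1) and the lower from 1206 to 1636. A pseudocount of 0.1 gave 1187 lower and 840 higher genes, and a mean of at least 5 FPKM gave 336 and 455. Without rescaling 539 were higher and 687 lower. Called genes kept their direction wherever they were recomputed, which the rule of 2-fold beyond both WT libraries made all but certain. List medians close to 0 changed sign, such as that of flowering time from 0.02 to -0.15 with the 75th percentile rescaling. Among named genes 7 calls fell short of the threshold with that rescaling and 5 without rescaling. Of the 17 genes higher and 32 lower at both ages, the counts became 31 and 54 with the replicate number as a block, 0 and 0 at an adjusted p under 0.05 by limma, and 11 and 19 at 2-fold within each replicate. A mean of at least 5 FPKM in ES leaves gave 11 higher. Leaving out a library gave 15 to 28 and 18 to 79: 28 without WT ES replicate 2, 79 without *hda9* ES replicate 1 and 18 without *hda9* ES replicate 2. Deviations of same-numbered ES libraries correlated at 0.55 for WT with *hda9*, 0.10 for WT with *pwr* and -0.01 for *hda9* with *pwr*, and no label ties the numbers to a shared batch, so a pairing was not established. Low values of WT and *hda9* ES replicate 2 had one common ratio at 19.5% of genes, against 0.285% and 0.313% for the WT and *hda9* pairs of unlike number. The same-numbered pair of WT and *hda9* ES replicate 1 had one at under 1% of genes. With *pwr* ES replicate 1, a library of unlike number, WT and *hda9* ES replicate 2 each had one at more than 19.5%. These shares therefore did not follow the replicate number. No paired analysis was possible in young leaves because *hda9* has 1 library. The causes were not tested. The lack of a second *hda9* library limits every call in young leaves.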

Other observations

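Ethylene response factors were among the genes farthest above WT. Of 20 tested genes with an ERF number as a name, 8 were called higher and 0 lower, and 18 were above both WT libraries. *ERF5*, *ERF6* and *ERF11* were among the 8 and also belong to the rapid stress list. The counts of the family and of that list are therefore not separate. Over all tested genes 3.58% were called higher, 3.33% were called lower and 38.7% were above both WT libraries. The median difference of the 20 genes was 0.76 from WT replicate 1 and 1.5 from WT replicate 2. *ERF4*, a repressor of this family, had 29.3 and 15.5 FPKM in WT and 205 in *hda9*. *ERF8*, another repressor, had 45.4 and 21.2 against 179, and *ERF13* had 7.41 and 1.32 against 48.7. *ERF15* had 1.48 and 4.88 against 23.0, with WT replicate 2 the higher of the WT libraries. In ES leaves 0 of 18 tested genes of the family were higher in *hda9* and 3 were lower at an unadjusted p under 0.05 by limma. Over all genes tested in ES leaves the shares were 2.76% and 2.75%. The family was chosen after its values were seen.

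Neighbouring genes were at times called together. In 71 pairs of genes adjacent in the order of their identifiers both were called, 24 pairs both higher, 22 both lower and 25 in opposite directions. The order held 33278 identifiers and the calls were 1228. How many such pairs calls spread at random would give was not computed, so the 71 pairs do not show that neighbours share calls. The opposite pairs included *AT3G63052*, which was listed at 0 in *hda9* with 9.07 and 7.55 FPKM in WT, beside *EDL3*, which was higher. The pair *AT2G32190* and *AT2G32200* was followed by *AT2G32210*, and all 3 were higher. *AT2G32210* had 3.04 and 2.54 FPKM in WT and 15.1 in *hda9*. Reads of overlapping or similar neighbours could have been split between them.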
